A study of Mus musculus with 6 samples.

Results

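Transcripts of 10 genes of the cohesin complex and its regulators were followed in mouse oocytes with a conditional knockout of Uba3 and in control oocytes. The genes were taken by name from the deposited table, and all 10 were found among its 28738 gene IDs. They were the kleisins Rec8 and Rad21, the SMC subunits Smc1b and Smc3, the STAG subunits Stag1, Stag2 and Stag3, and the regulators Sgo2a, Wapl and Esco2. RNA sequencing was done on fully-grown germinal vesicle (GV) oocytes, whose meiosis is paused in prophase I. There were 3 control and 3 Uba3 conditional knockout (Uba3 cKO) libraries, with some 150 oocytes pooled for each, and the mice of both groups were labelled with the strain C57/Bl6/N;129SvEv7. The Cre driver, the deleted part of Uba3 and whether the controls carried a floxed allele were not stated in the sources used here.

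Cohesin is a ring that holds sister chromatids together from DNA replication until anaphase. An SMC heterodimer is closed by a kleisin, and a STAG protein binds the kleisin. Mitotic cells use SMC1A, RAD21 and STAG1 or STAG2, whereas meiotic cells also have SMC1B, REC8, RAD21L and STAG3. In mouse oocytes cohesion is built before birth and has to last until ovulation, and loss of it with age is a known source of chromosome missegregation. UBA3 is the catalytic part of the NEDD8-activating enzyme, and NEDD8 is a ubiquitin-like modifier of cullin ubiquitin ligases.

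Values are the authors' normalized log2 values, without read counts, and library depth is therefore unknown. The targeted gene went with the labels, since Uba3 had values of 11.37, 11.46 and 11.34 in the controls (replicates 1, 2 and 3 here and in all lists of values) and of 10.03, 10.16 and 10.36 in the Uba3 cKO libraries. Its log2 difference was -1.21 (SE 0.10, limma, adjusted p = 2.07e-05). All 14 oocyte markers were detected, with summed linear values of 550748 to 623925 in control and 488990 to 548141 in Uba3 cKO libraries. Some markers of other ovarian cells also had values above the level filter given below. The summed linear value of 15 theca, stroma and luteal markers was 3724 to 5852 in control and 2645 to 3375 in Uba3 cKO libraries. For 17 granulosa and cumulus markers the sum was 23395 to 31853 in control and 20691 to 25929 in Uba3 cKO libraries. For 12 blood and immune markers it was 597 to 711 and 548 to 599, and for 9 endothelial markers 4053 to 4380 and 4061 to 4795. These last sums rest on few genes. By control mean, Pecam1 (11.30) and Tek (10.01) led the endothelial list, while Cdh5 (4.35) and Emcn (3.99) were low. C1qb (8.32) and Lyz2 (7.26) led the blood and immune list, while Ptprc (3.87) and Adgre1 (3.79) were low. Inha (12.42), Inhbb (12.28) and Nr5a2 (12.04) led the granulosa and cumulus list, while Has2 (5.57) and Foxl2 (4.84) were low. The sums thus do not show which cells were in the pools. By the limma test used below, 2 of 14 tested oocyte markers were called lower (Zp2 and Bmp15) and 0 higher. Of 15 tested granulosa and cumulus markers 2 were higher (Fshr and Kitl) and 1 lower (Inhba), and of 13 tested theca, stroma and luteal markers 6 were lower. Lower were also 2 of 8 tested blood and immune markers (C1qb and Hbb-bs) and 1 of 8 tested endothelial markers (Tie1), and none of these last 3 lists had a higher gene. Over all tested genes 5.64% were called higher and 2.5% lower. Markers below the level filter were Ptx3 and Tnfaip6 (cumulus), Insl3 and Tcf21 (theca and stroma), C1qa, Cd3e, Hbb-bt and Hba-a2 (blood and immune) and Eng (endothelial). Somatic cells also express the mitotic cohesin genes, and the part of such cells in the results below was not tested. In these pools, fewer cells of a type and less RNA per cell cannot be told apart.

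Control and Uba3 cKO libraries were compared in a limma fit over the 17450 genes whose linear value was 10 or more in at least 3 libraries. Of the 10 cohesin genes, 9 passed this level filter, and Rec8 did not. Stag2 and Esco2 rose in Uba3 cKO oocytes, none fell, and 7 did not pass (threshold of 0.05 on the Benjamini-Hochberg adjusted p). Over all tested genes 8.14% were called, 5.64% higher and 2.5% lower. The median log2 difference of the 9 genes was 0.01, beside -0.01 for all tested genes. Control and Uba3 cKO values were fully separated for 4 of the 9 genes, namely Stag2, Esco2, Rad21 and Smc1b, where 27.9% of all tested genes had groups that did not overlap.

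**Figure D1:**
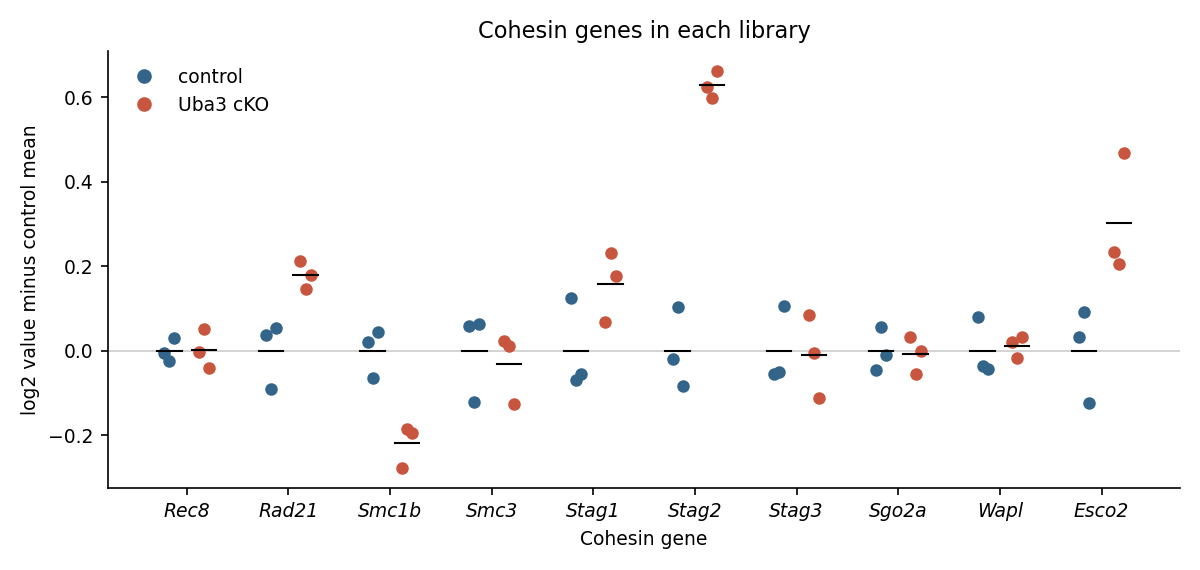
Log2 value of each of the 10 cohesin genes minus its control mean (vertical axis) in the 3 control and 3 Uba3 cKO libraries (points), with group means as bars. The Uba3 cKO points of Stag2 lie about 0.63 above its control mean, and those of Rec8, Smc3, Stag3, Sgo2a and Wapl mix with the control points.

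The bases upstream of the starts of the meiotic Smc1b and the mitotic Smc1a gene are given here. Neither gene was called, and the ratio of their transcripts within libraries differed between the groups without overlap. Groups of 27.9% of all tested single genes did not overlap either, and the share over ratios of other gene pairs was not computed. The RefSeq promoter table held 7 of the 10 cohesin genes, all but Stag2, Rad21 and Esco2, and also Smc1a, and its sequences are of build GRCm38.p6. The 250 bases before each start are printed from 5′ to 3′ on the gene's strand. Smc1b lies on the minus strand (chr15:85131958-85132207) and Smc1a on the plus strand (chrX:152016178-152016427). Capitals mark the CCAAT box (CCAAT) and the E2F motif (GCGGGAA) on either strand, so that ATTGG and TTCCCGC are the same motifs on the other strand.
Smc1b: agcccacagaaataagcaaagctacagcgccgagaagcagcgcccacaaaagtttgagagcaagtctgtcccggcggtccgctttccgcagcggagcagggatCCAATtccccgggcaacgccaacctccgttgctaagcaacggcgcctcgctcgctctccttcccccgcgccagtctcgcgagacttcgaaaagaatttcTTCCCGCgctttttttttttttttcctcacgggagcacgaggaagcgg
Smc1a: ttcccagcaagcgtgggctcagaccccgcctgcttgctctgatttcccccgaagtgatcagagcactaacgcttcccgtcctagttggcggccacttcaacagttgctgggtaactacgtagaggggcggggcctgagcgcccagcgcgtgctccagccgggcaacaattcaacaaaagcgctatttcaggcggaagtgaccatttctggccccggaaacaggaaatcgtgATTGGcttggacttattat
Both windows held a CCAAT box, at 147 bases before the start in Smc1b and 19 bases before it in Smc1a. Only the Smc1b window of this pair held the E2F motif, at 48 bases before the start. Of the 7 cohesin genes in the table, 6 held a CCAAT box in a window, beside 33.8% of all 32851 windows. Genes were counted with a match in any of their windows, and Sgo2a also had a further window without the box. The counts of genes and the shares of windows are thus of unlike units. The E2F motif was in Stag1 and Smc1b, beside 3.82% of all windows. The E-box CACGTG was in Stag3 alone among the 7, beside 6.02% of all windows. The windows of the 7 genes also differed from the others in base content. They held from 8 (Sgo2a) to 32 (Wapl) CpG pairs (C followed by G), beside a median of 6 over all windows. Whether this has a part in the motif counts was not tested. The motifs are matches of letters and not measured binding sites.

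Of the ring genes, Smc1b (ENSMUSG00000022432, chromosome 15) encodes the meiotic SMC1 subunit. Its values were 9.39, 9.31 and 9.42 in control and 9.10, 9.19 and 9.18 in Uba3 cKO libraries. Every Uba3 cKO library was below every control library. The log2 difference was -0.22 (95% interval -0.43 to -0.01), with an unadjusted p = 0.0384 and an adjusted p = 0.189 in limma, so Smc1b was not called. Its mitotic counterpart Smc1a, an X-linked gene outside the 10, stood at 10.59, 10.51 and 10.71 in control and 10.70, 10.84 and 10.67 in Uba3 cKO libraries, with overlapping groups and a difference of 0.13 (adjusted p = 0.447). Taken within each library, which cancels any scaling between libraries, the log2 value of Smc1b minus that of Smc1a was -1.23 ± 0.05 (SD, n = 3) in control oocytes and -1.58 ± 0.09 (SD, n = 3) in Uba3 cKO oocytes, and the groups did not overlap. This ratio was 0.35 lower in Uba3 cKO oocytes on the log2 scale, and no test of it was made. Smc3, the partner of either SMC1 protein, stood at 11.42, 11.24 and 11.42 in control and 11.38, 11.37 and 11.23 in Uba3 cKO libraries. Its groups overlapped and its difference was -0.03 (95% interval -0.23 to 0.17).

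Of the kleisin genes, Rad21 was the abundant one. RAD21 is the kleisin of mitotic cells, which separase cuts at anaphase. Rad21 (ENSMUSG00000022314, chromosome 15) stood at 11.64, 11.51 and 11.65 in control and at 11.81, 11.75 and 11.78 in Uba3 cKO libraries, all of the latter above all of the former. The difference was 0.18 (95% interval -0.01 to 0.37), and Rad21 was not called (adjusted p = 0.243). Rec8 (ENSMUSG00000002324, chromosome 14), the meiotic kleisin whose cleavage releases chromosome arms at the first division, stood at 2.63, 2.61 and 2.67 in control and 2.63, 2.69 and 2.59 in Uba3 cKO libraries. These values lie below the level filter, the groups overlapped, and Rec8 was not tested. Within libraries, the log2 value of Rec8 minus that of Rad21 was -8.97 ± 0.06 (SD, n = 3) in control oocytes. In Uba3 cKO oocytes it was -9.14 ± 0.07 (SD, n = 3), without overlap and with no test. The difference of -0.18 in this ratio mirrors the 0.18 of Rad21, since Rec8 itself differed by 0.002. The ratio thus adds nothing about Rec8. No other gene of the GENCODE M21 annotation overlaps an exon of Rec8. How the counting treated reads with several possible places is not stated in the sources used here. Rad21l, the other meiotic kleisin gene and not among the 10, stood at 7.41, 7.39 and 7.27 in control and 7.11, 7.23 and 7.26 in Uba3 cKO libraries. Its groups did not overlap, although the nearest libraries all but met, and it was not called (-0.16, adjusted p = 0.357).

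Stag2 (ENSMUSG00000025862, chromosome X) had the largest difference of the 9 tested genes. It is the gene for a STAG subunit of mitotic cohesin. It stood at 12.19, 12.31 and 12.13 in control and at 12.83, 12.81 and 12.87 in Uba3 cKO libraries, and the gap of 0.49 between the nearest libraries was wider than the range within either group. Stag2 rose by 0.63 (SE 0.08, 95% interval 0.45 to 0.81), a 1.55-fold higher level, with an adjusted p = 5.38e-04 in limma, and stood at rank 104 by p among all tested genes. It was called in each of 19 alternative settings, with differences from 0.57 to 0.68 and an adjusted p of at most 0.00689. Stag1, its autosomal paralog, stood at 10.69, 10.49 and 10.51 in control and 10.63, 10.79 and 10.74 in Uba3 cKO libraries. Control replicate 1 lay within the Uba3 cKO range, and Stag1 was not called (0.16, 95% interval -0.05 to 0.37, adjusted p = 0.357). Stag3, the meiotic STAG gene, stood at 8.15, 8.15 and 8.31 in control and 8.28, 8.19 and 8.09 in Uba3 cKO libraries. Its groups overlapped, and its difference was -0.01 (95% interval -0.23 to 0.21).

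Ratios within a library cancel its scaling and are given for the STAG genes, with no test. The log2 value of Stag3 minus Stag2 was -4.01 ± 0.17 (SD, n = 3) in control oocytes and -4.65 ± 0.12 (SD, n = 3) in Uba3 cKO oocytes, without overlap. That of Stag3 minus Stag1 was -2.36 ± 0.17 (SD, n = 3) and -2.53 ± 0.16 (SD, n = 3), with overlap. That of Stag2 minus Stag1, a pair chosen after its values were seen, was 1.65 ± 0.16 (SD, n = 3) and 2.12 ± 0.10 (SD, n = 3), without overlap. Expressed per kilobase of exon, Stag2 made up 74.9%, 78.2% and 75.1% of the summed linear value of the 3 STAG genes in control and 82.4%, 81.1% and 82.5% in Uba3 cKO libraries. The share of Stag3 was 6.84% ± 0.73 (SD, n = 3) in control oocytes and 4.73% ± 0.38 (SD, n = 3) in Uba3 cKO oocytes. The share of Smc1b in the sum of Smc1a and Smc1b was 37.8% ± 0.89 (SD, n = 3) and 32.3% ± 1.32 (SD, n = 3). Of the 3 kleisin genes, Rad21 held 87.9% ± 0.99 (SD, n = 3) and 90.1% ± 0.62 (SD, n = 3), and Rec8 held 0.254% ± 0.009 (SD, n = 3) and 0.230% ± 0.011 (SD, n = 3). A share also moves when another gene of its class does, so the lower share of Stag3 accompanies a Stag3 level that was not called different. Likewise, the lower share of Rec8 accompanies a log2 difference of 0.002 in Rec8 itself, which lay below the level filter. The small SD of its share is no measure of precision at that level. None of the shares was tested.

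**Figure D2:**
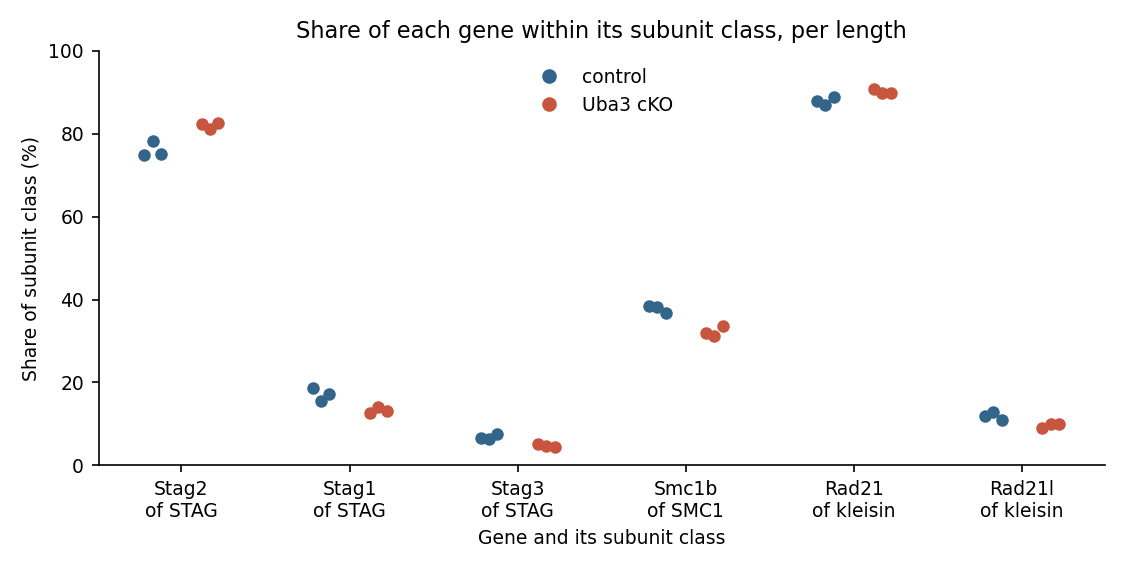
Share (%) of single genes in the summed linear value per kilobase of their subunit class, for STAG (Stag1, Stag2, Stag3), SMC1 (Smc1a, Smc1b) and kleisin (Rad21, Rad21l, Rec8) genes, in each of the 3 control and 3 Uba3 cKO libraries (points). The share of Smc1b is 36.8% to 38.4% in control and 31.2% to 33.7% in Uba3 cKO libraries.

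Stag2 lies on chromosome X, so the other X-linked genes are given beside it. Of 611 tested X-linked genes 68 (11.1%) were called higher and 8 (1.31%) lower. Of 16555 tested autosomal genes 907 (5.48%) were called higher and 418 (2.52%) lower. The median log2 difference was 0.03 for X-linked and -0.01 for autosomal genes. The X-linked cohesin genes Smc1a (0.13) and Hdac8 (0.29) were not called. Whether the higher share of X-linked calls has a part in the rise of Stag2 was not tested.

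The genes for cohesin release and protection were not called. Wapl, which opens the ring in prophase, stood at 13.78, 13.66 and 13.66 in control and 13.72, 13.68 and 13.73 in Uba3 cKO libraries. The 95% interval of its difference (0.01) ran from -0.15 to 0.17. Sgo2a, the shugoshin that shields centromeric REC8 from separase in oocytes, stood at 12.31, 12.42 and 12.35 in control and 12.39, 12.30 and 12.36 in Uba3 cKO libraries. Its difference was -0.01 (95% interval -0.18 to 0.17), and the groups overlapped. In the GENCODE M21 annotation 35.0% of the exon bases of Sgo2a are shared with Kctd18 on the opposite strand, and the strand setting of the counting is unknown, and reads of the 2 genes may not be separated. Kctd18 was at 8.73 ± 0.03 (SD, n = 3) in control oocytes and was not called (0.08, adjusted p = 0.703). The related gene Sgo2b, chosen after its value was seen, was not called either (0.23, adjusted p = 0.196).

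Esco2 (ENSMUSG00000022034, chromosome 14), the other called gene, encodes an acetyltransferase that locks cohesin onto chromatin during DNA replication by modifying SMC3. It stood at 14.49, 14.55 and 14.34 in control and at 14.69, 14.67 and 14.93 in Uba3 cKO libraries. All Uba3 cKO libraries were higher, with a gap of 0.11 between the nearest libraries of the groups and Uba3 cKO replicate 3 above the other two. Esco2 rose by 0.30 (SE 0.09, 95% interval 0.11 to 0.49), a 1.23-fold higher level, with an adjusted p = 0.0483 in limma, just inside the threshold. The call ended in 12 of 19 alternative settings, among them the exclusion of any library but Uba3 cKO replicate 2 (adjusted p from 0.00875 to 0.217 over the 19). The difference stayed between 0.22 and 0.36 in them. Its paralog Esco1 was not called, with a difference of 0.08 (adjusted p = 0.618).

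**Figure D3:**
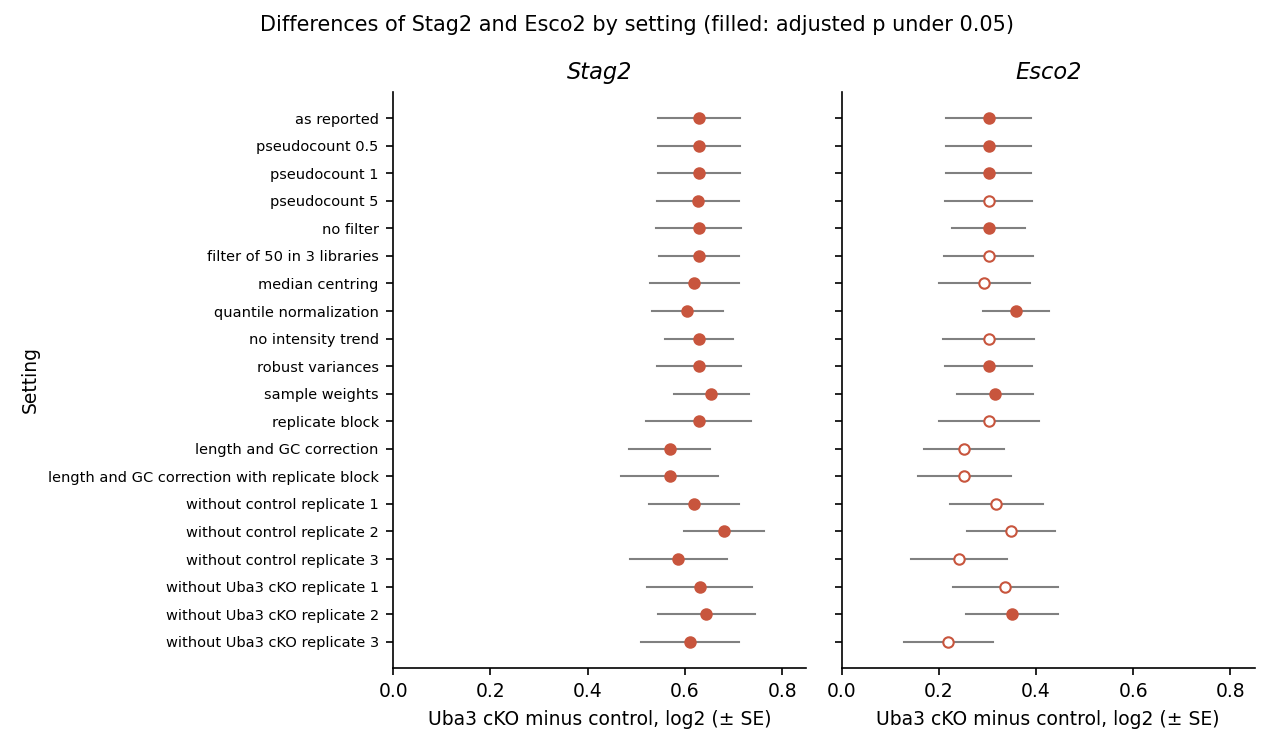
Log2 difference (Uba3 cKO minus control, ± SE) of Stag2 and Esco2 as reported and in 19 alternative settings, with filled points where the adjusted p is under 0.05. Stag2 is filled throughout, and Esco2 is open in 12 settings.

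The levels of these genes can be ranked only per length. With the linear value divided by the exon length in the M21 annotation, the order in control oocytes from high to low was Esco2, Wapl, Sgo2a, Rad21, Stag2, Smc3, Smc1a, Smc1b, Stag1, Rad21l, Stag3 and Rec8. On the log2 scale per kilobase these levels ran from 11.73 ± 0.11 (SD, n = 3) for Esco2 through 9.16 ± 0.10 (SD, n = 3) for Stag2 and 5.68 ± 0.09 (SD, n = 3) for Stag3 to 1.08 ± 0.03 (SD, n = 3) for Rec8. Only Sgo2a and Rad21 had overlapping ranges among neighbours in that order. Per kilobase, Esco2 was above 98.6% of the 17188 tested genes with a known length, Wapl above 97.4%, Stag3 above 43.7% and Rec8 above 1.07%. Rec8 lay below the level filter that all these tested genes had passed, so its low place among them was largely set by the filter. Other genes below the filter were not ranked. In Uba3 cKO oocytes Stag2 (9.79 ± 0.03, SD, n = 3) stood above Rad21 and Sgo2a. Rad21 (9.70 ± 0.03, SD, n = 3) and Sgo2a (9.54 ± 0.04, SD, n = 3) changed places, and their ranges there did not overlap. Stag1 and Smc1b changed places with overlapping ranges. The exon length counts every annotated exon, 11781 bases for Stag1 and 4047 for Smc1b, so genes with rarely used exons are ranked too low.

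**Figure D4:**
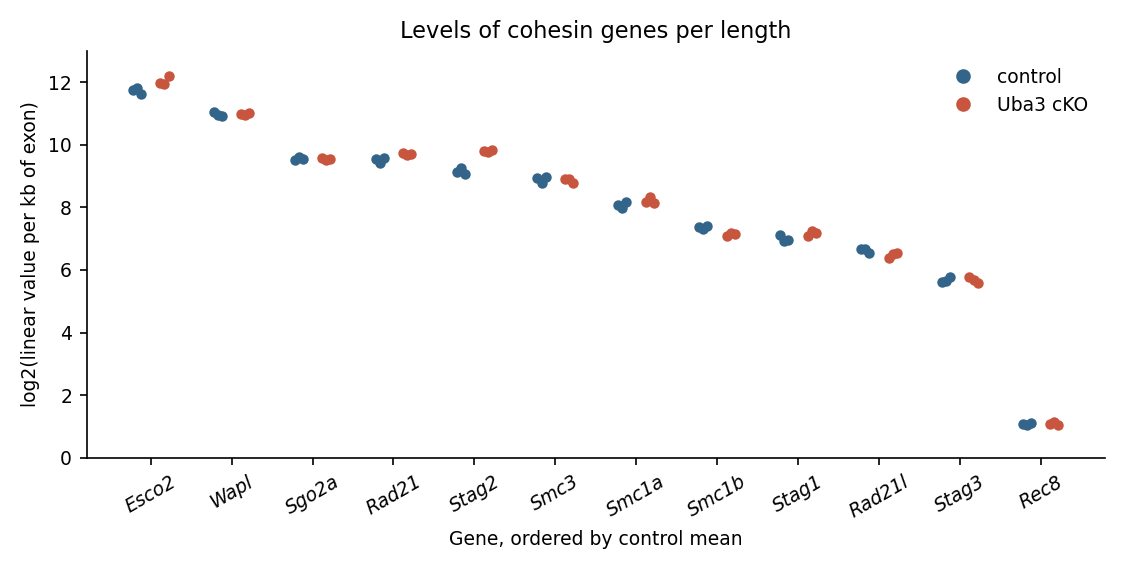
Log2 of the linear value per kilobase of exon for the 10 cohesin genes and the paralogs Smc1a and Rad21l, ordered by control mean, in 3 control and 3 Uba3 cKO libraries (points). Esco2 is at 11.60 to 11.82 and Rec8 at 1.06 to 1.11 in control libraries.

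A further list held 36 genes that load, release, protect, cut or modify cohesin, and all 36 passed the level filter. Of these 1 rose, 1 fell and 34 were not called, with a median difference of -0.02. These shares of 2.78% each lie near or below the 5.64% higher and 2.5% lower of all tested genes. Dscc1, a subunit of the alternative clamp loader needed for cohesion in replication, rose by 0.42 (SE 0.10, adjusted p = 0.0222). It stood at 9.29, 9.12 and 9.03 in control and 9.54, 9.53 and 9.63 in Uba3 cKO libraries. This call was lost on leaving out replicate 2 or 3 of the controls or replicate 1 or 3 of the Uba3 cKO (adjusted p up to 0.119). Mau2, which loads cohesin together with NIPBL, fell by 0.32 (SE 0.09, adjusted p = 0.0404). It stood at 11.60, 11.74 and 11.67 in control and 11.31, 11.32 and 11.42 in Uba3 cKO libraries. This call was lost in 8 of 19 alternative settings, among them the exclusion of any library except control replicate 1 (largest adjusted p = 0.156) and the use of no level filter (adjusted p = 0.0662). Its partner Nipbl was not called (-0.03, 95% interval -0.29 to 0.22), with control replicate 1 at 12.44 and the other control libraries at 12.04.

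Genes that bind or unlock the closed ring were not called. Pds5a and Pds5b, which work with WAPL and the acetyltransferases, differed by 0.36 (adjusted p = 0.0712) and 0.28 (adjusted p = 0.157). In both, control replicate 1 lay within the Uba3 cKO range, at 11.94 for Pds5a beside 11.56 and 11.49 in the other controls, and at 11.09 for Pds5b beside 10.62 and 10.79. Without that library both were called, Pds5a at 0.50 (adjusted p = 0.00509) and Pds5b at 0.41 (adjusted p = 0.0208). Each was called in only 2 of 19 alternative settings, with a limma adjusted p of up to 0.281 for Pds5a and 0.431 for Pds5b. Cdca5, which encodes the WAPL antagonist sororin, was at -0.04 (95% interval -0.26 to 0.18). Hdac8, the SMC3 deacetylase, was at 0.29 without overlap of the groups (adjusted p = 0.0908). Sgo1, the other shugoshin gene, was at -0.16 (adjusted p = 0.366). Espl1, which encodes separase, was at -0.22 (adjusted p = 0.170), and Pttg1, which encodes its inhibitor securin, at -0.17 (adjusted p = 0.468). Without control replicate 1, Pttg1 was called lower (-0.34, adjusted p = 0.0374), with that library at 13.20 beside 13.84 and 13.60 in the other controls. That was its only call in 19 alternative settings, over which its difference ran from -0.34 to -0.02 (limma adjusted p up to 0.947).

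**Figure D5:**
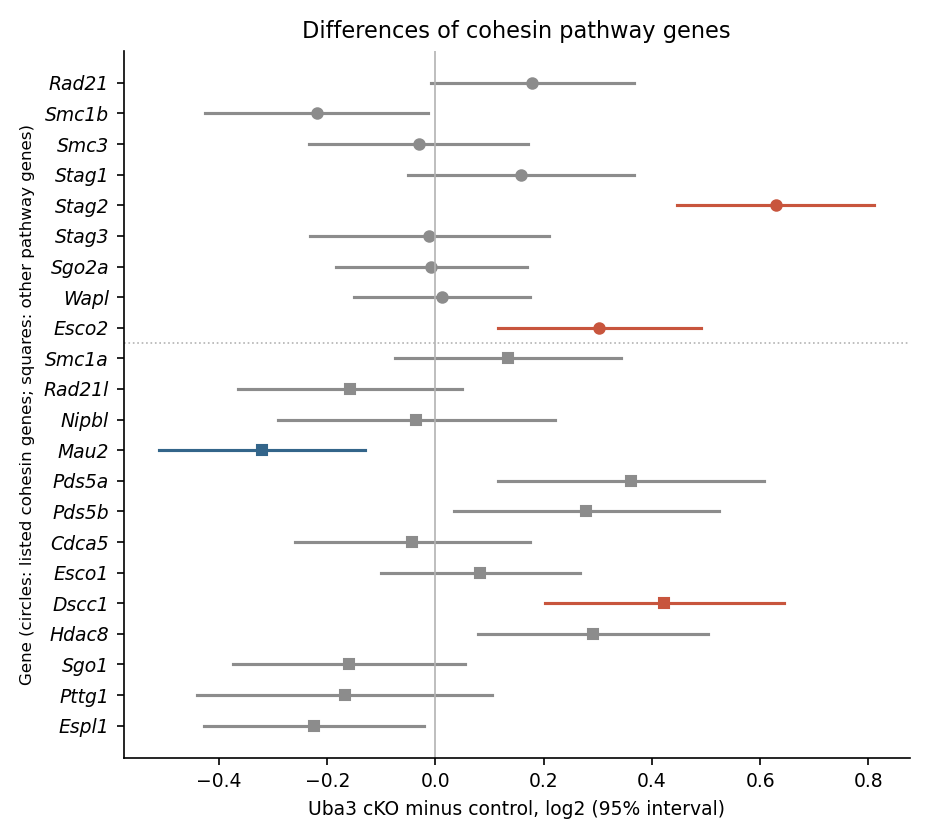
Log2 difference (Uba3 cKO minus control) with its 95% interval from limma for the 9 tested cohesin genes (circles) and 13 other pathway genes (squares). Coloured genes were called, namely Stag2, Esco2 and Dscc1 higher and Mau2 lower.

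Relatives of cohesin gave single calls. Of 18 condensin and SMC5/6 genes, Ncapg2, a condensin II subunit, rose by 0.48 (SE 0.08, adjusted p = 0.00210), from 12.83 ± 0.06 (SD, n = 3) to 13.31 ± 0.02 (SD, n = 3), and 17 were not called. Of 17 kept genes of the synaptonemal complex and meiotic chromosome axis, Sycp3, an axis protein that binds alongside cohesin, rose by 0.48 (SE 0.10, adjusted p = 0.00836) and 16 were not called. The call of Sycp3 ended without control replicate 3 (adjusted p = 0.0552). The called shares of 5.56% and 5.88% lie near the 5.64% higher of all tested genes, and the medians of these lists were 0.002 and 0.001.

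For the called cohesin genes, the genes with the most similar library profile were sought by the root mean square difference between mean-centred log2 values over the 6 libraries. For Stag2 these were Chic1 (0.037), Ankrd31 (0.039) and Homer1 (0.043), each called higher, by 0.61, 0.65 and 0.57. For Esco2 they were Pdk1 (0.022), Ube2e3 (0.027) and Cyld (0.031), with differences of 0.29, 0.32 and 0.32 and adjusted p of 0.107, 0.0650 and 0.0864. These genes were chosen for their similar values, so their similar differences follow from the choice and are no separate result. Of 13492 genes compared, 73 had a profile within 0.1 of Stag2 and 424 within 0.1 of Esco2.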

How the data were processed

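Per the submitters' processing notes, tools included STAR, featureCounts, fastp and DESeq2, with the build GRCm39, and no version or setting is given. The deposited table holds log2 values, normalized by the authors. The transform is not named. The values have the shape of a regularized logarithm, which would shrink differences of low genes such as Rec8. Per the labels' protocols, RNA came from a PicoPure kit and libraries from a TruSeq RNA kit.

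Symbols, exon length and GC content came from GENCODE M21 (27660 of 28738 IDs matched), an annotation of an earlier build. The only coordinates given are those of the 2 printed promoter windows, on build GRCm38.p6. Genes with a linear value (the deposited log2 value raised back as a power of 2) of 10 or more in at least 3 of 6 libraries were fitted with limma 3.58.1 (R 4.3.3) with an intensity trend, without pseudocount, and adjusted by Benjamini-Hochberg over all 17450. Differences are Uba3 cKO minus control. The labels do not tie pools to animals, and p-values thus cover only the spread between these pools. The fit was tested on simulated data.

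The cohesin genes and lists were chosen with earlier results of these data known. Named were all 10 genes, Uba3, every called gene of the pathway list and 12 set regulators or paralogs, called condensin and axis genes, and 3 profile neighbours per called gene. Shares within subunit classes and the comparison by chromosome were chosen after seeing the data. Of 22 axis genes, 18 were matched. A single further marker of the blood and immune list is not reported here and is in none of its counts or sums. No protein sequence was used.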

Additional observations from a re-analysis of the deposited data

How the results depend on the processing

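Stag2 kept its direction and call in all 19 alternatives. Smc1b, Smc3, Stag1, Stag3, Rad21, Sgo2a and Wapl were called in none, and Rec8 was not called when no filter was used (adjusted p = 0.982). Esco2 was not called with a pseudocount of 5 (0.30), a filter of 50 (0.30), median centring (0.29), no intensity trend (0.30), the length and GC correction (0.25), the replicate block (0.30), or that correction with the block (0.25). In each of these the count of higher cohesin genes was 1 in place of 2, and the cause was not tested. Leaving out single libraries gave 1 to 2 higher cohesin genes, 0 to 3 higher and 0 to 3 lower other pathway genes, 482 to 1014 higher and 136 to 623 lower genes of all tested, and a difference of Esco2 from 0.22 to 0.35. The calls over all genes fell by more than 1.5 times without control replicate 2 (605 higher and 175 lower), control replicate 3 (482 and 136), Uba3 cKO replicate 1 (516 and 165) or Uba3 cKO replicate 3 (542 and 167).

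Of the other pathway genes, 0 were lower with no filter, 0 with the replicate block and 0 with the correction and block, and 2 were lower with quantile normalization. Higher were 2 without an intensity trend and 2 after the length and GC correction. With sample weights 3 were higher and 2 lower, and 829 of all tested genes were lower in place of 437. No alternative moved the median difference of all genes by 0.1.

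Replicate numbers did not pair the libraries, with correlations of deviations of -0.09, -0.20 and -0.05 for same-numbered libraries, and no library correlated best with its own number. With the replicate block 899 genes were higher and 359 lower, and the call of Mau2 was lost (-0.32, adjusted p = 0.0857), as it was with the correction and block (-0.34, adjusted p = 0.0571). The unknown depth limits what can be said of Rec8.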
